A study of Mus musculus with 16 samples.

Results

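The 31 genes described here form a fixed list of T cell lineage and T cell signalling genes, chosen by gene symbol out of the 54532 genes in the deposited tables. They are the CD3 chains Cd3d, Cd3e, Cd3g and Cd247, the coreceptors Cd4, Cd8a and Cd8b1, 9 signalling proteins that act close to the receptor (Lck, Zap70, Lat, Txk, Skap1, Themis, Trat1, Ubash3a and Sh2d1a), 7 surface receptors (Cd2, Cd5, Cd6, Cd27, Cd28, Cd96 and Thy1), 7 nuclear factors (Tcf7, Lef1, Bcl11b, Gata3, Tbx21, Ets1 and Satb1) and Nsg2. They were measured by RNA sequencing of cells washed from mouse lungs (bronchoalveolar lavage) in 16 libraries, 4 each from saline males, saline females, bleomycin males and bleomycin females. All mice were 8 to 10 weeks old and received saline or 4 U/kg of bleomycin, a drug that injures the lung and leads to fibrosis, into the oropharynx 14 days before lavage. The sample labels spell the strain C56BL/6J and the series description spells it C57BL/6. No genotype, sort or gate is named, and the labels do not say whether a library holds 1 mouse or several, so p-values measure the spread between libraries. All 31 genes passed the low-count filter that left 15257 genes for testing, but only 5 of them (Lat, Cd2, Cd27, Thy1 and Ets1) pass it on the 8 saline libraries alone.

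A T cell recognises a peptide on another cell through its T cell receptor, a pair of variable chains that carry no signalling part of their own. The signal passes through the CD3 chains, which Lck phosphorylates with the help of the coreceptors CD4 or CD8. Zap70 then docks on the CD3 chains and phosphorylates Lat, the scaffold on which the further pathway assembles. Lavage from a healthy mouse lung holds mostly alveolar macrophages, and T cells enter the airspace during inflammation.

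Promoter sequence was matched by symbol in the RefSeq table of assembly GRCm38.p6 for 22 of the 31 genes. The 9 others were Cd2, Cd28, Cd4, Cd6, Cd8b1, Ets1, Sh2d1a, Skap1 and Thy1. The 250 bases before the transcription start are printed for the 3 neighbouring CD3 chains of chromosome 9, for Lck and for Lat. The 3 chains were chosen because they kept near-constant proportions to each other over the bleomycin libraries. Lat was chosen because its proportion to them was among the most constant there, though it differed between treatments. The windows are chr9:44980432-44980681 on the minus strand (Cd3g), chr9:44981536-44981785 on the plus strand (Cd3d), chr9:45009612-45009861 on the minus strand (Cd3e), chr4:129573642-129573891 on the minus strand (Lck, its distal start) and chr7:126369569-126369818 on the minus strand (Lat). All are written 5′ to 3′ on the strand of the gene. Capitals mark matches, on either strand, to a short motif of a factor that is itself among the 31 genes: TCAAAG for TCF7 and LEF1, AGATAA for GATA3, AGGAAG for ETS1 and AGGTGT for TBX21.
Cd3g: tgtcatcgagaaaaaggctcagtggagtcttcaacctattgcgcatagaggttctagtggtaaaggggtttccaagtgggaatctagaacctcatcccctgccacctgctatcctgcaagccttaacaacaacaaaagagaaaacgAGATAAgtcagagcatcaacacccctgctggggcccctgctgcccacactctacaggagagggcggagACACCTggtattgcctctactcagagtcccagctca
Cd3d: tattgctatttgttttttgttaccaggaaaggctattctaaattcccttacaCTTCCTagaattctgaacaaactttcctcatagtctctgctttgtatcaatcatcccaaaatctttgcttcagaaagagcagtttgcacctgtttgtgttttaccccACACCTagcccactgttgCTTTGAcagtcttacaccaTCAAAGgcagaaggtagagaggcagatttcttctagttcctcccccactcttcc
Cd3e: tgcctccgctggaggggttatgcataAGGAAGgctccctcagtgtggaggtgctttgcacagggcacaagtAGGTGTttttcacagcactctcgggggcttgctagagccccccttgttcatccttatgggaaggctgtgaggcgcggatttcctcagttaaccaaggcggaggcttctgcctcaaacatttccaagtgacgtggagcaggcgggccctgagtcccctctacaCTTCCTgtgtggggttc
Lck: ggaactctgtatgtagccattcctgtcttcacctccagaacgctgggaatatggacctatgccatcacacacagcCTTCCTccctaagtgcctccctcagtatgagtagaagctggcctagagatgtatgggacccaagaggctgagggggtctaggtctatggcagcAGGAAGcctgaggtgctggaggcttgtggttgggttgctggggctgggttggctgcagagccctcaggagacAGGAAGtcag
Lat: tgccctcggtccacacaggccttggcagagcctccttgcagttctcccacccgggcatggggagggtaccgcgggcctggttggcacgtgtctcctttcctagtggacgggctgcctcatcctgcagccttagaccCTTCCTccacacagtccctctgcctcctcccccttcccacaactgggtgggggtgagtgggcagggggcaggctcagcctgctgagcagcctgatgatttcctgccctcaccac

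The 3 chromosome 9 genes are close neighbours in the deposited coordinates. Cd3g and Cd3d are read away from each other with 1354 bases between them, and Cd3d and Cd3e are 11400 bases apart. The Cd3d window held 4 motif matches, the Cd3e and Lck windows 3 each, the Cd3g window 2 and the Lat window 1. Over the 36 windows of the 22 matched genes, some of which overlap, TCAAAG stood in 6 and AGATAA in 2, against 13.8% and 9.99% of all 32817 windows of the same length. AGGAAG stood in 13 of the 36 and AGGTGT in 7, against 29.5% and 11.8% of all windows. A match is only a run of letters and was not related to binding or expression here.

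Total counts ran from 16385784 to 24567609 per library. The 8 bleomycin libraries fell into 2 clusters in the summed level of Cd3d, Cd3e and Cd3g, called the CD3 level below. Male library C33 and female libraries C68 and C69 had 41.8, 35.95 and 44.9 CPM (counts relative to library size, scaled with edgeR's trimmed-mean factors), and the other 5 had 88.7 to 139 CPM. The total counts of these 3 libraries, 18871879 to 24225885, lay inside the range of the whole set. In 29 of the 31 genes the 3 lowest bleomycin libraries were exactly C33, C68 and C69. The exceptions were Cd2 and Tbx21. The split was read from Cd3d, Cd3e and Cd3g, which are themselves among the 29 genes. The share of all tested genes with the same 3 lowest libraries is not given here. Male library C65 stood apart in red blood cell genes (summed level 6018 CPM, against 67.3 to 1183 CPM in the other bleomycin libraries) and also had the highest CD3 level. The summed level of 10 markers of resident alveolar macrophages, the main cell of lavage, was 12852 to 28130 CPM over all 16 libraries. Values below are listed in the order C33, C65, C66, C67 for bleomycin males, C49, C50, C68, C69 for bleomycin females, C70 to C73 for saline males and C74 to C77 for saline females.

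After bleomycin 30 of the 31 genes rose and 1, Cd2, fell. These counts were the same for males, for females and for the average of the sexes (edgeR quasi-likelihood test with Benjamini-Hochberg adjustment, called at an adjusted p below 0.05). Among all 15257 genes, 31.5% were called higher and 24.9% lower in males, 26.7% and 17.2% in females, and 34.7% and 28.8% averaged over the sexes. The median log2 fold change of the 31 genes was 7.07 in males, 7.08 in females and 7.28 averaged, while that of all genes tested was 0.02, 0.02 and 0.01. With Sh2d1a, which had 0 counts in saline males, set to its lower bound, the median in males was 7.03. For every one of the 31 genes the 8 bleomycin libraries did not overlap with the 8 saline libraries, 30 lying above and Cd2 below. Of all genes tested 19.3% lay higher and 10.3% lower without overlap. But 26 of the 31 genes pass the low-count filter only with the bleomycin libraries, where they are high. Among those a fall could hardly be called, so the shares of all genes do not test this list. Because these are mixed cells, more T cells and more RNA per T cell cannot be told apart for any gene here. Fold changes below are averaged over the sexes unless a sex is named. The saline side often rests on a few counts, and leaving out 1 saline library moved the fold by over 1.5 times in 12 of the 31 genes without changing a direction or a call.

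**Figure D1:**
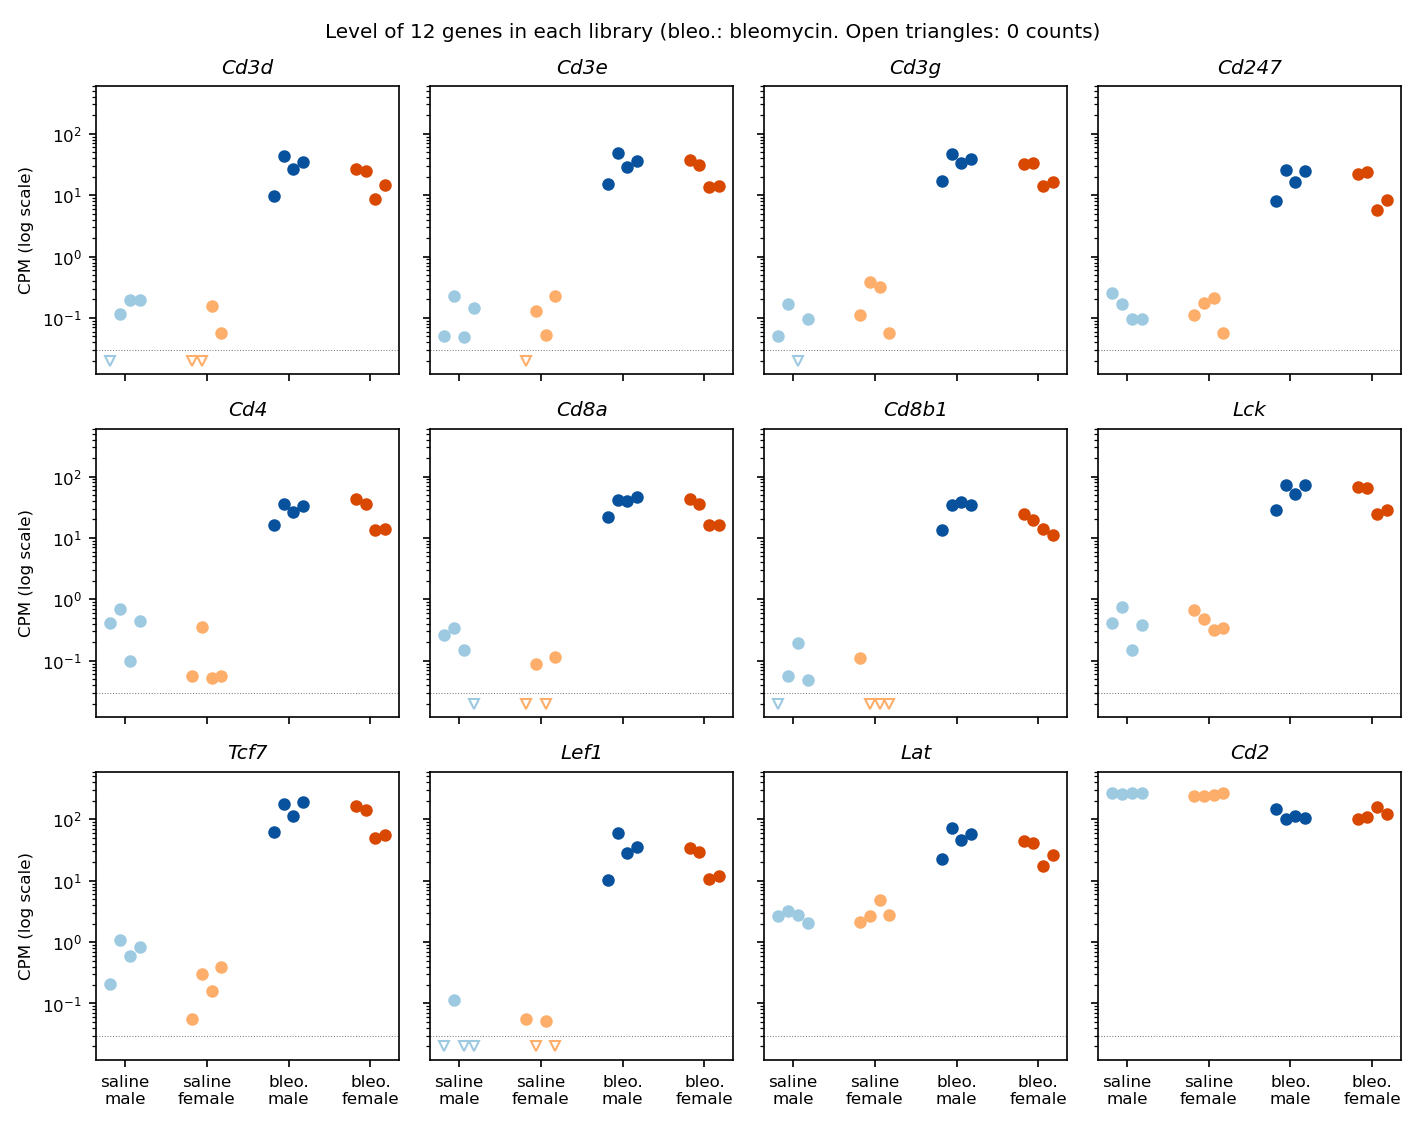
Level of 12 of the genes in each of the 16 libraries, in CPM on a log axis, by group, with 0 counts drawn as open triangles under the dotted line. The CD3 chains rose from at most 0.391 CPM to between 5.74 and 48.6 CPM, Lat started from 2.03 to 4.88 CPM, and Cd2 alone was lower after bleomycin.

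All 4 CD3 chains rose. Cd3d stood at 9.73, 43.8, 26.8 and 34.971 CPM in bleomycin males and 26.6, 25.047, 8.66 and 14.9 CPM in bleomycin females, against 0, 0.114, 0.196 and 0.194 CPM in saline males and 0, 0, 0.158 and 0.0568 CPM in saline females. The 8 saline libraries held 14 Cd3d counts in all, 3 of them none, and the log2 fold change was 8.05 (SE 0.49, adjusted p = 7.11e-11) (SE is the approximate standard error), or 8.70 without saline female C76. Cd3e, which pairs with both CD3 delta and CD3 gamma on the cell surface, stood at 15.1, 48.6, 28.6 and 36.4 CPM and 36.7, 30.5, 13.4 and 13.9 CPM in bleomycin males and females, against 0.0517, 0.229, 0.0490 and 0.145 CPM and 0, 0.130, 0.0525 and 0.227 CPM in the saline groups. Its log2 fold change was 7.90 (SE 0.42, adjusted p = 1.20e-11), on 17 saline counts. C33, C68 and C69 were low for both genes, and every bleomycin library exceeded every saline library.

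Cd3g stood at 16.9, 46.7, 33.8 and 38.2 CPM in bleomycin males and 32.7, 33.2, 13.9 and 16.1 CPM in bleomycin females, against 0.0517, 0.172, 0 and 0.0968 CPM and 0.111, 0.391, 0.315 and 0.0568 CPM in saline, a log2 fold change of 7.67 (SE 0.37, adjusted p = 3.96e-12). Saline females C75 and C76 had the highest saline levels of Cd3g. Cd247, the zeta chain, carries most of the signalling motifs of the receptor. It stood at 7.98, 25.3, 16.2 and 24.5 CPM and 22.3, 23.5, 5.74 and 8.35 CPM after bleomycin and 0.258, 0.172, 0.0979 and 0.0968 CPM and 0.111, 0.174, 0.210 and 0.0568 CPM after saline, a log2 fold change of 6.76 (SE 0.44, adjusted p = 1.94e-10), with no overlap between treatments. Cd247 overlaps Pou2f1 on the other strand, which had 3965 counts in the bleomycin and 4598 in the saline libraries. Whether the counting used strand is not given in the sources used here, so reads from the shared stretch cannot be told apart, but only 23 counts were assigned to Cd247 in saline.

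All 3 coreceptor genes rose. Cd4, the coreceptor of T cells that read MHC class II, stood at 16.006, 35.4, 26.5 and 33.6 CPM in bleomycin males and 43.8, 35.049, 13.4 and 13.9 CPM in bleomycin females. In saline it stood at 0.413, 0.686, 0.0979 and 0.436 CPM in males and 0.0555, 0.348, 0.0525 and 0.0568 CPM in females, and the log2 fold change was 6.80 (SE 0.39, adjusted p = 3.95e-11), or 7.43 without saline female C75. That library held most of the Cd4 of the saline females, and saline male C72 was the lowest male. Cd8a, shared by both forms of CD8, stood at 21.9, 41.9, 40.1 and 46.955 CPM and 42.9, 35.7, 15.967 and 15.959 CPM after bleomycin and 0.258, 0.343, 0.147 and 0 CPM and 0, 0.0869, 0 and 0.114 CPM after saline, a log2 fold change of 8.28 (SE 0.40, adjusted p = 3.39e-12). For both genes C68, C69 and C33 were the low bleomycin libraries, and treatments did not overlap.

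Cd8b1, the beta chain that marks conventional CD8 T cells, stood at 13.5, 34.1, 38.8 and 34.2 CPM in bleomycin males and 24.2, 19.8, 14.036 and 11.2 CPM in bleomycin females. The saline values were 0, 0.0572, 0.196 and 0.0484 CPM in males and 0.111, 0, 0 and 0 CPM in females, 8 counts in all, and the log2 fold change was 8.79 (SE 0.41, adjusted p = 1.97e-12), or 9.98 without saline female C74. Of the 4 bleomycin males 3 lay above all 4 bleomycin females, and C33 lay inside the female range.

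All 9 kinases and adaptors rose, with a median log2 fold change of 7.28. Lck, the kinase that starts the signal, stood at 28.1, 72.6, 51.6 and 71.9 CPM and 68.2, 64.1, 24.2 and 28.972 CPM in bleomycin males and females, against 0.413, 0.743, 0.147 and 0.387 CPM and 0.666, 0.478, 0.315 and 0.341 CPM in saline, a log2 fold change of 6.87 (SE 0.34, adjusted p = 5.12e-12). Zap70 stood at 11.034, 20.9, 17.7 and 26.2 CPM and 23.9, 19.9, 9.18 and 8.90 CPM after bleomycin and 0.0517, 0.229, 0.245 and 0.0968 CPM and 0, 0.391, 0.0525 and 0 CPM after saline. Its log2 fold change was 6.87 (SE 0.41, adjusted p = 5.37e-11), or 8.09 without saline female C75, which held 9 of the 10 Zap70 counts of that group. In both kinases C33, C68 and C69 were the low bleomycin libraries.

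Lat, the adaptor that Zap70 phosphorylates, had the highest saline counts of this group. It stood at 22.6, 72.3, 45.7 and 56.6 CPM in bleomycin males and 43.7, 41.1, 17.6 and 25.8 CPM in bleomycin females, against 2.69, 3.20, 2.79 and 2.03 CPM and 2.11, 2.65, 4.88 and 2.78 CPM in saline (38 to 93 counts per library), and its log2 fold change was 3.79 (SE 0.26, adjusted p = 3.55e-10). Treatments did not overlap. The other adaptors and kinases started near 0 in saline. Txk, a kinase of the Tec family, rose by 7.28 on the log2 scale and Skap1, an adaptor that links the receptor to integrins, by 7.74. Trat1, which associates with the receptor complex, rose by 7.13 on 5 saline counts. Themis, needed for thymocyte selection, rose by 7.64 (9.25 without saline male C71), and Ubash3a, which dampens receptor signalling, by 7.59 (8.38 without saline female C75). Sh2d1a, the adaptor SAP of SLAM-family receptors, had 292 counts in bleomycin males and 0 in saline males, which is at least 89.7-fold higher when saline is set to the floor of 3 counts over the group. In females it had 205 counts against 1, a ratio of 199.6 with an exact 95% interval from 35.4 to 7922 that covers counting error only.

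Of the 7 surface receptors 6 rose and Cd2 fell. Cd5 and Cd6, neighbouring genes of related scavenger-type receptors that dampen or tune T cell signals, rose by 6.61 and 6.39 on the log2 scale. Cd28, the main costimulatory receptor, rose by 7.05, and Cd96, a receptor of T and NK cells, by 7.86, which became 9.47 without saline female C74 and 9.03 without saline male C73. Thy1, a surface glycoprotein of mouse T cells that other cells also carry, stood at 40.1, 100.39, 68.1 and 80.1 CPM in bleomycin males and 74.7, 64.5, 30.8 and 35.7 CPM in bleomycin females. It stood at 0.878, 1.03, 0.637 and 0.484 CPM in saline males and 0.610, 0.696, 0.210 and 0.397 CPM in saline females, a log2 fold change of 6.64 (SE 0.29, adjusted p = 7.58e-13). Again C33, C68 and C69 were the low bleomycin libraries, and the treatments were far apart.

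Cd27, a costimulatory receptor of the TNF receptor family found on naive and memory T cells and on some B and NK cells, changed least among the genes that rose. It stood at 7.28, 15.8, 10.9 and 14.4 CPM in bleomycin males and 18.7, 14.8, 4.96 and 4.48 CPM in bleomycin females, against 3.56, 4.0022, 3.92 and 3.53 CPM and 2.39, 2.30, 3.31 and 2.21 CPM in saline, a log2 fold change of 1.88 (SE 0.27, adjusted p = 6.72e-06). The lowest bleomycin library, C69, was above the highest saline library, C71, by little. Cd27 overlaps Vamp1 on the other strand, which had 3660 counts in the bleomycin and 10068 in the saline libraries, against 1913 and 490 assigned to Cd27. Reads from the shared stretch cannot be told apart without strand, and the part of Vamp1 in the saline level of Cd27 was not tested.

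Cd2, an adhesion receptor that binds CD48 and is known from T and NK cells, was the only gene of the 31 at a high level in saline. It stood at 272, 257, 266 and 264 CPM in saline males and 237, 239.69, 248.7 and 268 CPM in saline females, and at 146, 102, 112 and 107 CPM and 100.01, 108, 158 and 123 CPM in bleomycin males and females. The group means were 265 ± 5.86, 248 ± 13.9, 117 ± 20.033 and 122 ± 25.6 CPM in that order (SD, n = 4). Cd2 fell by 1.10 on the log2 scale (SE 0.088, adjusted p = 3.78e-09, edgeR quasi-likelihood test), by 1.18 in males and 1.03 in females. Among the bleomycin libraries it was highest in C68, C33 and C69, the reverse of the CD3 chains. Cd2 made up 94.1% to 97.1% of the summed CPM of the 31 genes of the saline libraries and 7.19% to 29.3% of the bleomycin ones, while the other 30 genes together went from 7.88 to 16.1 CPM in saline to between 380 and 1320 CPM. Of 10 marker genes of resident alveolar macrophages 7 fell and 1 rose beside Cd2, with a median log2 fold change of -0.60. Of all genes tested 28.8% were called lower and 34.7% higher. The part of these macrophages in the fall of Cd2 was not tested.

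**Figure D2:**
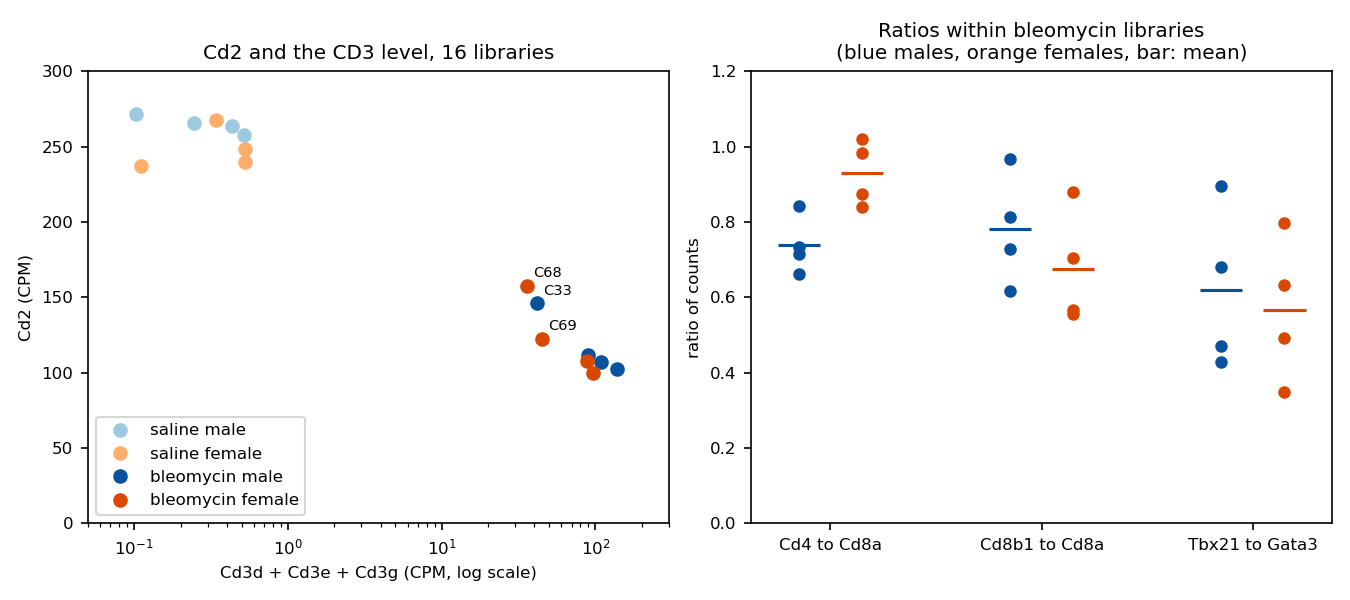
Left, Cd2 in CPM against the CD3 level in CPM on a log axis, 1 point per library, with the 3 bleomycin libraries of low CD3 level labelled. The saline libraries sit at 237 to 272 CPM of Cd2 and the bleomycin libraries at 100.01 to 158 CPM. Right, 3 within-library count ratios in each bleomycin library (points) with the group mean (bar). The male and female points overlap in each ratio.

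All 7 nuclear factors rose, with a median log2 fold change of 7.31. Tcf7 and Lef1 are related factors of naive and memory T cells that act with beta-catenin. Tcf7 stood at 62.4, 176, 114 and 191 CPM in bleomycin males and 164, 142, 50.4 and 54.997 CPM in bleomycin females, against 0.207, 1.09, 0.588 and 0.823 CPM and 0.0555, 0.304, 0.158 and 0.397 CPM in saline, a log2 fold change of 8.21 (SE 0.42, adjusted p = 7.18e-12). Lef1 stood at 10.3, 59.1, 28.6 and 35.8 CPM and 33.5, 29.2, 10.9 and 12.2 CPM after bleomycin. In saline only C71, C74 and C76 had any Lef1, 4 counts in all, and the log2 fold change was 9.71 (SE 0.61, adjusted p = 1.24e-10), or 10.90 without saline male C71. For both genes C33, C68 and C69 were the low bleomycin libraries.

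Bcl11b, which commits precursors to the T lineage, stood at 14.8, 35.6, 30.2 and 39.8 CPM in bleomycin males and 40.4, 39.2, 12.3 and 15.3 CPM in bleomycin females, against 0.155, 0.400, 0 and 0.0968 CPM and 0, 0.261, 0.368 and 0.114 CPM in saline, a log2 fold change of 7.31 (SE 0.44, adjusted p = 6.29e-11). Ets1 and Satb1, a lymphoid transcription factor and a chromatin organiser, were abundant by count, with bleomycin levels of 50.2 to 192 CPM and 25.6 to 109.8 CPM, and rose by 6.74 and 8.34 on the log2 scale. The bleomycin libraries of these genes kept the same low group of 3.

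Gata3 and Tbx21, the factors known for type 2 and type 1 responses, were the lowest of the 7 by count. Gata3 stood at 3.62, 6.24, 3.87 and 5.99 CPM and 5.31, 5.42, 2.97 and 3.50 CPM in bleomycin males and females, against 0.0517, 0.172, 0.0979 and 0 CPM and 0, 0.348, 0 and 0 CPM in saline, a log2 fold change of 5.61 (SE 0.45, adjusted p = 3.61e-09), or 7.65 without saline female C75, which held every Gata3 count of its group. Tbx21 stood at 1.70, 2.67, 2.63 and 5.37 CPM and 4.24, 1.89, 1.46 and 2.21 CPM after bleomycin and 0, 0, 0 and 0.194 CPM and 0.0555, 0.130, 0 and 0 CPM after saline. Its log2 fold change was 5.59 (SE 0.53, adjusted p = 4.03e-08), or 7.19 without saline male C73 and 6.20 without saline female C75. Over the bleomycin libraries Gata3 ranged from 2.97 to 6.24 CPM, 2.10-fold, and Tbx21 from 1.46 to 5.37 CPM, 3.67-fold. Nsg2, a protein of neuronal vesicles known mainly from the brain, had 2575 counts in bleomycin and 3 in saline, a ratio of 813 with an exact 95% interval from 278 to 3944 that covers counting error only. Its fitted log2 fold change was 9.28, or 10.44 without saline female C75 and 10.08 without saline male C70.

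**Figure D3:**
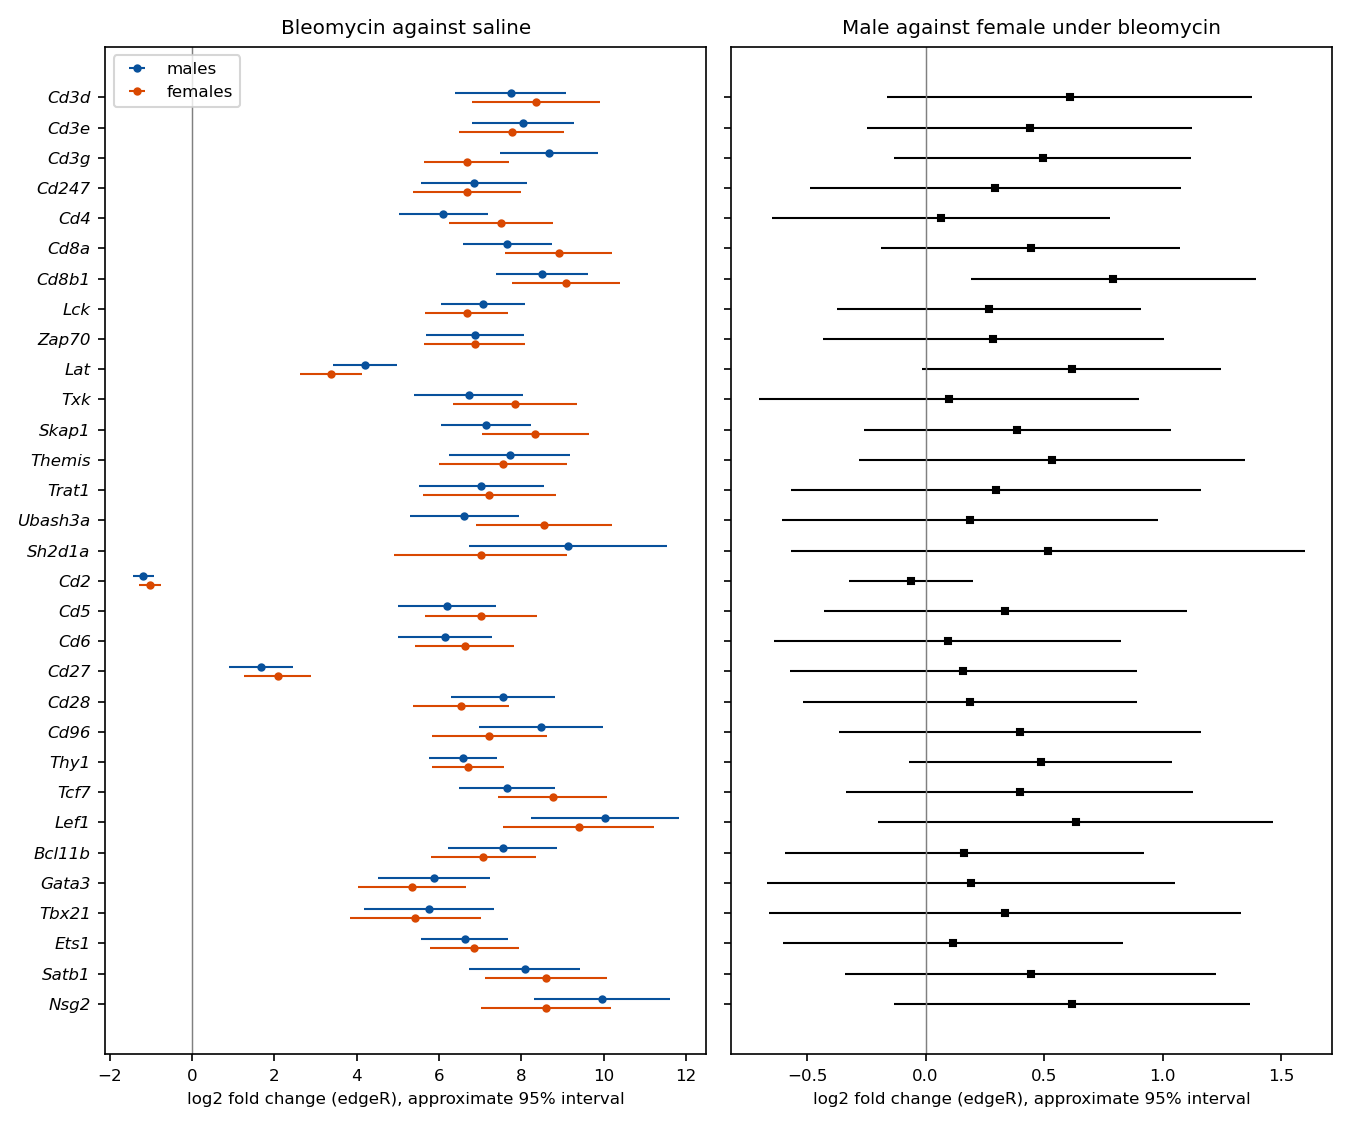
Left, log2 fold change of bleomycin against saline for each of the 31 genes in males and females, with approximate 95% intervals. Right, log2 fold change of male against female among bleomycin libraries. On the left all intervals lie above 0 except those of Cd2, which lie below. On the right all intervals but that of Cd8b1 include 0.

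Levels of different genes were compared only as FPKM, the deposited values per length of gene. In the bleomycin libraries Cd2 was highest at 67.7 ± 11.9 FPKM (SD, n = 8), followed by Tcf7 at 45.0 ± 21.8, Thy1 at 20.4 ± 8.08, Lck at 17.3 ± 7.18 and Cd8b1 at 15.8 ± 7.23 FPKM. Among the CD3 chains the FPKM was 13.0 ± 6.69 for Cd3d, 8.76 ± 3.62 for Cd3g, 6.76 ± 3.13 for Cd3e and 3.11 ± 1.55 for Cd247. Cd8a stood at 8.88 ± 3.50 and Cd4 at 6.68 ± 2.86 FPKM. Sh2d1a was lowest at 0.535 ± 0.299 FPKM. Of the 30 gaps between neighbours in this order only 3 exceeded the larger SD of the pair, those of Cd2 to Tcf7, Tcf7 to Thy1 and Skap1 to Txk. In saline Cd2 stood at 147 ± 7.69 FPKM, and Cd27 and Lat came next at 1.35 ± 0.318 and 1.04 ± 0.318 FPKM.

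In most of the genes C33, C68 and C69 were the low bleomycin libraries, as in the CD3 level. As a ratio to the CD3 level, 27 of the 28 genes outside that sum had a smaller spread over the 8 libraries than as CPM, and the median SD fell from 0.72 to 0.27 on the log2 scale. These ratios share their libraries and a denominator, and the count is a description with no test. Any gene with the same low libraries tends to lose spread when divided by the CD3 level. Markers of B and NK cells, described below, had the same low libraries. The same count over all tested genes is not given here. Skap1 was the most constant of the 28, with 0.194 to 0.227 counts per CD3 count (SD 0.084 on the log2 scale), followed by Lat with 0.455 to 0.574 (SD 0.11), Thy1 (SD 0.14), Lck (SD 0.16) and Satb1 (SD 0.16). Gata3 changed little, from an SD of 0.41 as CPM to 0.39 as a ratio. Sh2d1a and Tbx21 kept a wide spread (SD 0.54 and 0.53 as ratios), and both had low counts. Cd2 was the only gene whose spread grew, from 0.24 to 0.96. The 3 chains of the sum itself kept shares of 0.233 to 0.332 (Cd3d), 0.309 to 0.382 (Cd3e) and 0.336 to 0.405 (Cd3g).

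**Figure D4:**
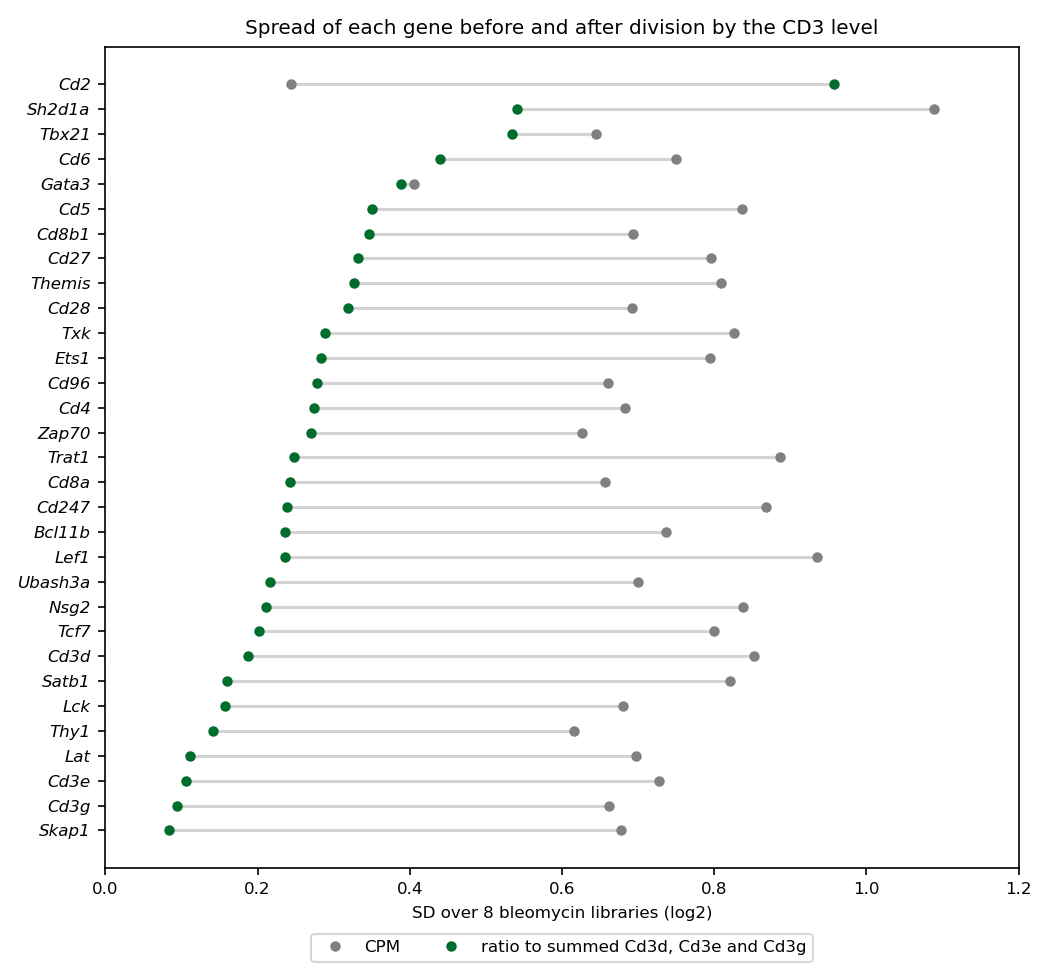
SD over the 8 bleomycin libraries on the log2 scale for each of the 31 genes, as CPM (grey) and as a ratio to the CD3 level (green). The median of the 28 genes outside the CD3 sum falls from 0.72 to 0.27, Gata3 stays near 0.4, and Cd2 moves the other way.

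Outside the CD3 sum, 5 genes had a mean of at least 10 counts in saline and after bleomycin. For these the proportion to the CD3 level was compared between treatments, with 2 to 12 CD3 counts in each saline library. That minimum favours genes that are high beside the CD3 sum in saline. A negative difference was thus partly set by the choice of genes, and the p-values below do not test the direction. The log2 ratio after bleomycin minus that in saline was -8.91 for Cd2, -6.08 for Cd27, -4.08 for Lat and -1.22 for Ets1. Each of these 4 gave p = 0.0001554, the smallest that the exact two-sided permutation test of 8 against 8 libraries can give (adjusted p = 0.000194 over 5 genes). For Ets1 the ranges were 1.03 to 3.29 in saline and 0.34 to 0.9998 after bleomycin. The Thy1 difference was -1.19 (adjusted p = 0.0157, exact permutation test), with overlapping ranges of -1.22 to 2.81 in saline and -0.47 to -0.06 after bleomycin. The saline side of each ratio carries the counting error of the CD3 sum.

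Male and female libraries were compared next, since the title of the series names a difference between the sexes. In saline none of the 31 genes was called, where 0.269% of all genes tested were, and 0 of the 31 had an unadjusted p below 0.05 with edgeR, while DESeq2 and limma voom called none of the 31. The share of all genes depends on the fit. It was 41 of 15257 genes here and 184 of 15257 with DESeq2. With only the saline libraries fitted it was 765 of 13450, and none of the 5 of the 31 genes tested in that fit was called. Cd4 and Cd27 had the smallest p, with log2 differences of male against female of 1.47 (95% interval -0.64 to 3.57, adjusted p = 0.641) and 0.56 (95% interval -0.28 to 1.39, adjusted p = 0.655). Cd4 averaged 0.408 ± 0.241 CPM in saline males and 0.128 ± 0.146 CPM in saline females (SD, n = 4), and the ranges overlapped. Without saline female C75 the log2 difference of Cd4 was 2.73 (adjusted p = 0.682, edgeR quasi-likelihood test). Cd27 averaged 3.75 ± 0.241 and 2.55 ± 0.508 CPM, and every saline male lay above every saline female. In the authors' deposited table of that comparison Cd27 was listed with a log2 fold change of 0.54 (adjusted p = 0.0817) and Tcf7 with 1.53 (adjusted p = 1).

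Under bleomycin none of the 31 genes was called either, against 0.059% of all genes tested, and DESeq2 and limma voom called none. Fitted values were above 0, that is higher in males, for 30 of the 31 genes, with a median of 0.34, while the median of all genes was -0.01. These genes share the same libraries, of which C33 among the males and C68 and C69 among the females had the low CD3 level, so their values are not independent of each other. The count of 30 became 23 without C68, 24 without C69 and 26 without C65 or without C67. The CD3 level itself was 94.9 ± 40.9 CPM in bleomycin males and 66.4 ± 30.4 CPM in bleomycin females (SD, n = 4), and the ranges overlapped. Cd8b1 had the smallest p of the 31 (log2 difference 0.79, 95% interval 0.19 to 1.39, unadjusted p = 0.0127 and adjusted p = 0.995 with edgeR), the only 1 with an unadjusted p below 0.05. Its group means were 30.1 ± 11.3 CPM in males and 17.3 ± 5.83 CPM in females. Lat followed with 0.62 (95% interval -0.02 to 1.25, adjusted p = 0.995) and means of 49.3 ± 20.9 and 32.1 ± 12.5 CPM. Cd4 differed by 0.06 (95% interval -0.65 to 0.78). Over the 31 genes the 95% intervals reached from -0.70 to 1.60. In the authors' deposited table Cd8b1 was the 1 gene of the 31 listed, with a log2 fold change of 0.79 and an adjusted p of 0.999991.

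The response to bleomycin was not found to differ between the sexes in any of the 31 genes. In the interaction test 0 of the 31 were called, against 0.00655% of all genes tested, 0 had an unadjusted p below 0.05 with edgeR, and DESeq2 and limma voom called none. The smallest p belonged to Cd3g, with a difference of the log2 fold changes, male minus female, of 1.998 (95% interval -0.46 to 4.46, adjusted p = 0.648), and Lat, with 0.83 (95% interval -0.22 to 1.89, adjusted p = 0.653). The Cd3g value rests on 6 counts in saline males and 18 in saline females. Over the 31 genes the 95% intervals of this difference reached from -6.68 to 7.96, so equal responses were not shown.

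Ratios within a library do not depend on the scaling between libraries, and 7 were compared between bleomycin males and females. The ratio of Cd4 to Cd8a counts was 0.733, 0.844, 0.662 and 0.716 in the males and 1.02, 0.982, 0.840 and 0.873 in the females, with means of 0.739 ± 0.0763 and 0.929 ± 0.0866 (SD, n = 4). Male library C65 was above female library C68 by little, and the other males lay below all females. The difference of -0.33 on the log2 scale gave p = 0.0571 in the exact two-sided permutation test (adjusted p = 0.4 over the 7 ratios), where the smallest p this design allows is 0.0286. Cd8b1 to Cd8a averaged 0.781 ± 0.148 in males and 0.676 ± 0.152 in females, and Tbx21 to Gata3 0.618 ± 0.215 and 0.567 ± 0.192. Those 2 ratios and the ratios of Tcf7, Lef1, Cd247 and Cd5 to the CD3 level all had an adjusted p of 0.886 (exact permutation test), and male and female ranges overlapped in each of the 7.

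Other genes of T cells were looked at in fixed lists. All 7 constant-region genes of the T cell receptor rose, with a median log2 fold change of 7.73. Trac, of the alpha chain, rose by 8.56, and Trbc1 and Trbc2, of the beta chain, by 8.17 and 9.02. Their summed level in C33, C68 and C69 was 62.7, 52.4 and 68.4 CPM, against 121 to 208 CPM in the other bleomycin libraries, the same split as for the CD3 level. Of 14 genes of naive, memory and tissue T cells 12 rose and 1 fell, with a median of 5.20. Ccr7, a homing receptor for lymph nodes, rose by 4.14, Klf2, a factor of quiescent T cells, rose by 1.62, and Cd44, an adhesion receptor that macrophages carry as well, fell by 0.69.

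The downstream partners of the receptor did not move as 1 group. Of 25 signalling partners 16 rose, 5 fell and 4 were not called, with a median of 0.28. Of all genes tested 34.7% were called higher and 28.8% lower. Among those that rose, the T cell kinase Prkcq rose by 6.24 on the log2 scale, the exchange factor Rasgrp1 by 5.80 and the adaptor Sit1 by 6.93. Among those that fell, Ptprc (CD45), which all leukocytes carry, fell by 0.40, Pag1 by 0.74, Grap2 by 0.84 and Csk by 0.21. Vav1 rose by 0.19 (adjusted p = 0.00107, edgeR quasi-likelihood test). Scaling by library totals alone moved the median log2 fold change of all genes from 0.01 to -0.20, and under it 11 of the 25 partners were called higher and 7 lower, and Vav1 went to -0.02.

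Markers of B and NK cells rose after bleomycin and had the same low bleomycin libraries as most of the 31 genes. All 10 B cell markers rose (median log2 fold change 8.42), and their summed level was 0.387 to 0.858 CPM in saline. It was 64.9, 34.3 and 76.2 CPM in C33, C68 and C69, against 134 to 245 CPM in the other bleomycin libraries. All 7 NK markers tested of 10 rose (median 5.83), from a summed level of 0.672 to 2.29 CPM in saline. It was 20.1, 16.2 and 16.9 CPM in C33, C68 and C69, against 26.5 to 45.7 CPM in the other 5. Lck, Txk, Cd2, Cd27, Cd96, Sh2d1a, Tbx21 and Ets1, among others, are known from NK cells as well as T cells. Lef1, Ets1, Cd27 and Satb1, among others, are known from B cells at some stage. The part of either cell type in the levels of the 31 genes was not tested.

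Of 11 markers of innate lymphoid cells, which share Gata3 and Thy1 with T cells, 8 were tested, of which 7 rose and Rora fell. Their summed level overlapped between saline males (57.5 to 65.4 CPM) and bleomycin males (64.2 to 69.9 CPM). In females it did not overlap, at 40.9 to 54.033 CPM in saline and 59.8 to 81.4 CPM after bleomycin. Rora made up most of the saline sum. It averaged 57.9 CPM in saline males and 44.3 CPM in saline females, where the list averaged 63.0 and 48.9 CPM. After bleomycin Rora averaged 31.4 and 34.6 CPM, so the sum hides the rise of the other 7 markers. Il5 had 0 counts in all 16 libraries, Il22 had 1 and Il13 had 7. All 6 markers of conventional dendritic cells rose, 5 of 6 tested of plasmacytoid dendritic cells, the 4 tested of 7 neutrophil markers and all 7 of monocytes. The other neutrophil markers did not pass the filter. Ly6g had 0, 0, 1 and 0 counts in saline males, saline females, bleomycin males and bleomycin females. In that order Ngp had 2, 3, 4 and 4 counts and Camp 6, 0, 0 and 4. Of those tested, S100a9 had 1 and 4 counts in saline males and females and Retnlg 0 and 3. A fall could hardly be called for these. No mast cell or basophil marker passed the filter, and Fcer1a had 0 counts in every group. The summed level of the monocyte list, most of it from C1qa, C1qb and C1qc, did not follow the CD3 level. Those 3 genes averaged 505, 716 and 419 CPM in bleomycin males, where the list averaged 1998 CPM. The sum thus describes them more than the rest of the list. The summed level was 1509, 1591 and 2147 CPM in C33, C68 and C69 and 1206 to 2405 CPM in the other 5. The neutrophil level also lacked the split, at 93.6, 83.6 and 121.9 CPM against 82.8 to 151.4 CPM. The conventional dendritic cell level had it in part. C33 and C68 were lowest, at 299 and 277 CPM, but C69 had 437 CPM, inside the 406 to 575 CPM of the other 5. The plasmacytoid dendritic cell level had it, at 45.6, 41.6 and 45.4 CPM against 55.7 to 69.6 CPM.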

How the data were processed

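RNA of mouse lavage cells was sequenced in 16 libraries, 4 per combination of treatment and sex. The submitters' processing notes name DESeq2, featureCounts 1.5.0-p3, HISAT2 2.0.5 and fastp 0.12.2, in no stated order, and the builds mm9 and mm10, with no role given for either. The authors deposited raw counts per gene and FPKM values per gene. They also deposited 5 comparison tables with log2 fold changes and p-values, limited to genes whose unadjusted p is at most 0.05. Coordinates are those of the deposited tables. Of the 31 genes 29 have the same coordinates and strand in GENCODE M21, an annotation of GRCm38.

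Genes of low count were removed with filterByExpr of edgeR, using the groups and a minimum of 10, and the rest were scaled by trimmed-mean (TMM) factors. A quasi-likelihood model (edgeR 4.0.16, R 4.3.3) with a term for each group covered all 16 libraries together, and Benjamini-Hochberg adjustment ran over the 15257 genes tested. The fit was tested on simulated counts. Standard errors and 95% intervals are approximate, from the fold change and its F value. Pooled ratios have exact intervals. Ratios within libraries used exact two-sided permutation tests, with 0.5 added to counts where treatments were compared. The promoter windows are RefSeq's, upstream bases only.

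Alternatives were DESeq2 1.42.0, limma 3.58.1 (voom), other scalings and filters, only the groups compared, and leaving out each library. The 31 genes, the gene lists and the tests were chosen with earlier results of these data known. All 31 genes are named. Values in every library are given for the CD3 chains, the coreceptors, Lck, Zap70, Lat, Thy1, Tcf7, Lef1, Bcl11b, Gata3, Tbx21 and the 2 genes of smallest p in each comparison of the sexes. Of each other list named by gene, the 3 highest in FPKM are given, except where a gene is not reported here. Prkcq, Rasgrp1, Sit1, Pag1, Grap2, Csk, Il5, Il22, Il13 and Fcer1a, and the library values of Cd2, were added after their values were seen. So were the counts of Ly6g, Ngp, Camp, S100a9 and Retnlg.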

Additional observations from a re-analysis of the deposited data

Results flagged for a closer look

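One value stood apart from its group. Cd27 in saline females was 3.31 CPM in C76 and 2.21 to 2.39 CPM in C74, C75 and C77, a gap that exceeds Dixon's critical value for 4 samples (0.829 of the range). The same check was made for 86 combinations of gene or ratio and group, where chance alone flags about 1 in 20.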

How the results depend on the processing

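No paired analysis was possible because no replicate code occurs in more than 1 group. The counts of called genes kept their values in males, females and the average under the alternatives run, except the strict filter, which left 30 of the 31 genes and gave 29 higher and 1 lower. None of the genes tested among the 31 was called between the sexes or in the interaction under any of them, but with only the groups compared 5 of the 31 could be tested between saline males and females. Scaling by library totals alone moved the median log2 fold change of all genes to -0.21 in males, -0.17 in females and -0.20 averaged, with 3720 genes called higher and 7001 lower averaged, against 5300 and 4400. Of the 7 ratios compared between bleomycin males and females, none of them called, 5 changed sign when single libraries were left out. The log2 difference ranged from -0.135 to 0.0318 for Tcf7 to the CD3 level, from -0.0859 to 0.312 for Tbx21 to Gata3, from -0.218 to 0.0259 for Cd247 to the CD3 level, from -0.0722 to 0.188 for Lef1 to the CD3 level and from -0.136 to 0.188 for Cd5 to the CD3 level. The other 2 kept their sign, with ranges of -0.40 to -0.28 for Cd4 to Cd8a and 0.107 to 0.351 for Cd8b1 to Cd8a. The cause was not tested. The correlations with the CD3 level across bleomycin libraries, and the search for the genes that follow it most closely, were not run because the 8 libraries fall into 2 clusters. Low saline counts limit the fold changes: leaving out 1 library moved the fold of 9 genes in males and 15 in females by over 1.5 times, and of 12 averaged.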
